A study of Saccharomyces cerevisiae with 2 samples.

Results

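The phosphate regulon of budding yeast is described here through 10 genes chosen by name for their place in the pathway: PHO5, PHO8, PHO84, PHO89, PHO90, PHO4, PHO2, PHO80, PHO85 and PHO81. Of these genes, 9 have a compaction score among the 4738 genes scored in a swr1Δ strain, and 1, PHO8, has none. The score comes from Micro-C, in which fixed chromatin is digested to nucleosomes with MNase and religated, so that read pairs report which nucleosomes lie close together. The swr1Δ strain was made in the W303 background and lacks Swr1, the ATPase of the SWR-C complex that places H2A.Z in nucleosomes. It was grown to mid-log phase in YPD, a rich medium, and all samples used here are of this 1 strain, labelled as 2 replicates. WT scores were not analysed here, so no value below is a change caused by loss of H2A.Z. The paper's methods call the replicates of this strain biological, but name 3 of them.

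The regulon is a textbook case of a gene circuit that reads a nutrient. When phosphate is plentiful, the cyclin Pho80 and the kinase Pho85 phosphorylate the transcription factor Pho4, which is then kept out of the nucleus. When phosphate runs short, Pho81 inhibits the kinase, and Pho4 enters the nucleus and acts with the homeodomain protein Pho2 at promoters of genes for phosphatases and phosphate transporters. PHO5 and PHO8 are classic models of nucleosome loss at an induced promoter, and PHO84 is a classic case of a gene with a regulatory antisense RNA. Expression of these genes was not measured in the files used here.

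Each score is 1 value per gene that the authors derived from the strain as a whole. It has no replicate values, so no error and no test can be given for a gene or for a difference between genes. The log base, the length correction and the meaning of the sign are not given in the sources used here, and scores are called only lower or higher below. Of the 4 read orientations in the counts of the 2 Micro-C libraries, only in-in pairs were used here, and they numbered 7944948 and 6169934. These totals are not the full depth of the libraries. In-in pairs more than 500 bp apart made up 1.07% and 1.77% of them. At distances above 500 bp and no longer than the shortest scored gene of the 10 (PHO80, 882 bp) they numbered 37000 and 47153 over the whole genome, and up to the length of the longest (PHO81, 3537 bp) 70478 and 88574. How many pairs stand behind the score of any 1 gene is unknown. SWR1 itself has a listed score of -2.13 although it is deleted, and 24 genes were lower. That value cannot measure how compact SWR1 is.

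In swr1Δ, 7 of the 9 scored genes had a score below 0 and 2 had a score above 0. Scores below 0 were found for 53.8% of all scored genes. The median of the 9 genes was -0.501, against -0.0394 for all scored genes, whose quartiles were -0.342 and 0.248. Below the first quartile lay 6 of the 9, as do 25% of all genes by definition, and above the third quartile lay the 2 that were above 0. This quartile count was chosen after the scores were seen. PHO5 alone lay between the quartiles. The 5 regulators (PHO4, PHO2, PHO80, PHO85 and PHO81) were all below the first quartile, and the 4 scored target and transporter genes ran from -0.639 to 0.957, 2 below 0 and 2 above. Against the 200 scored genes closest in length to each, 7 of 9 lay below the median, where 50.2% of all genes do. The 9 genes were picked for their function and are too few to call this order a property of the regulon.

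**Figure D1:**
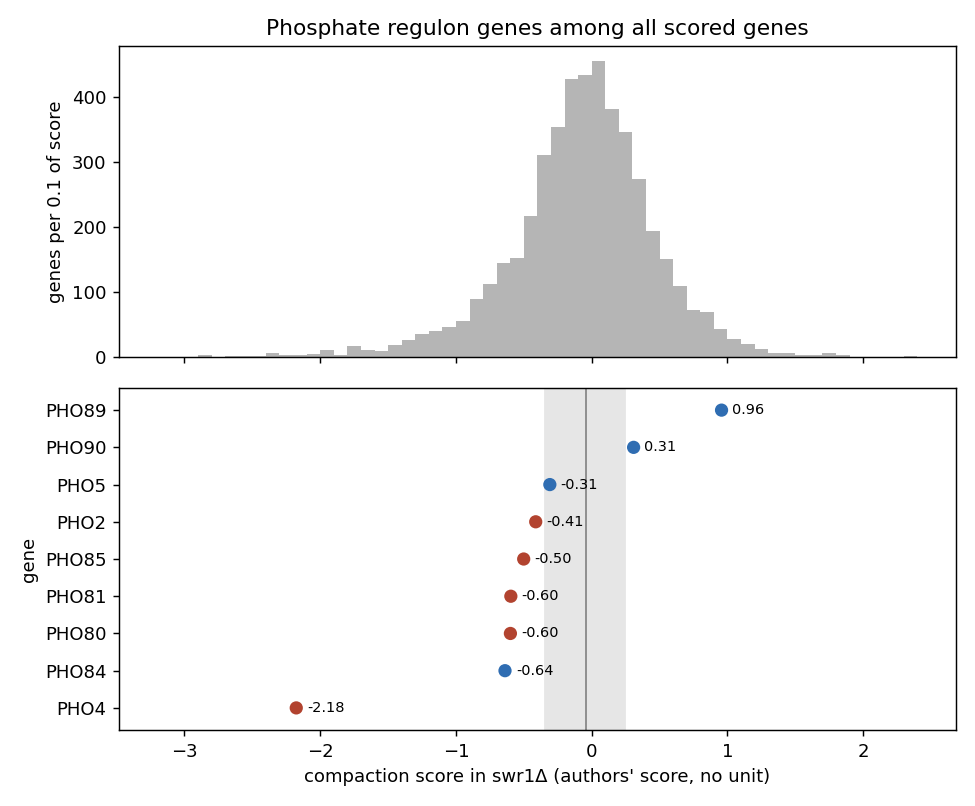
The upper panel shows the number of genes per 0.1 of compaction score in swr1Δ for all scored genes, and the lower panel places each phosphate regulon gene on the same axis, with regulators in red, targets and transporters in blue, the median of all genes as a line and their interquartile range as a grey band. PHO4 sits far to the left at -2.18, a cluster of 6 genes lies between -0.639 and -0.308, and PHO90 and PHO89 sit to the right of the band.

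PHO4 (YFR034C; chromosome VI, 225020 to 225958 in the R64 assembly, minus strand), which encodes the basic helix-loop-helix activator of the regulon, had the lowest score of the 9 at -2.18. Only 23 of the 4738 scored genes had a lower score, which is 0.485% of them. It lay 1.54 below the next gene of the regulon, PHO84, so that the gap was almost as wide as the span of the other 8 genes together, 1.60. PHO4 is short, at 939 bp, and short genes had widely spread scores. Among the 200 scored genes closest to it in length (906 to 972 bp) the SD was 0.611 and the median 0.0371, and 1 of the 200 had a score lower than PHO4. The score of PHO4 was also slightly lower than that of the deleted gene SWR1, which is listed at -2.13. SWR1 shows that a listed score need not measure compaction, whatever its value. Whether the scores of PHO4 and of its neighbor MIN10, at -2.34, do so was not tested.

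The low value of PHO4 did not stand alone on its chromosome. The nearest scored gene downstream of PHO4, MIN10, had a score of -2.34, and the next, RPL2A, which encodes a protein of the large ribosomal subunit, had -1.36. On the upstream side, RSC8, a subunit of the chromatin remodeler RSC, had 0.35, and IRC5 had 0.0968. The scores thus changed by 2.53 between PHO4 and RSC8, and 99.4% of 4569 pairs of adjacent scored genes in the genome were closer to each other than that. Between PHO4 and RSC8 lie 3 coding genes without a score. On the other side 1 lies between PHO4 and MIN10, and 3 lie between PHO4 and RPL2A, that 1 included. RPL2A, MIN10 and PHO4 formed the only run of 3 adjacent scored genes, of 4553 such runs, in which every score was as low as that of RPL2A or lower. This run was looked for after the scores were seen. Low scores were common among ribosomal protein genes, the class of RPL2A. Without the 120 scored genes named RPL, RPS or RPP, the share of genes lower than PHO84 fell from 12.5% to 10.8%. Of these 120 genes, 2 lay below PHO4. The rank of MIN10 among genes of its own length is not given here, and whether the run reflects its region was not tested.

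The other 4 regulators had scores between -0.599 and -0.412. PHO80 (YOL001W; chromosome XV, 325249 to 326130, plus strand), the cyclin, had a score of -0.599, with 13.9% of scored genes lower. Its kinase PHO85 (YPL031C; chromosome XVI, 492018 to 493037, minus strand) had -0.501, with 17.0% lower. The gene for the inhibitor of the pair, itself activated by Pho4, is PHO81 (YGR233C; chromosome VII, 954674 to 958210, minus strand). It had -0.596, with 13.9% lower. PHO2 (YDL106C; chromosome IV, 270222 to 271901, minus strand), which encodes the homeodomain partner of Pho4, had -0.412, with 21.0% lower. These 4 genes sit on 4 chromosomes and spanned 0.187 of score, with lengths from 882 to 3537 bp. This span leaves out PHO4, the regulator with the lowest score, and is given as a description only. Without replicate values, the order of these 4 genes cannot be told from error.

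Setting these 4 genes against others of like length changed their ranks. PHO81, the longest, ranked lower among genes of its own length, where 9 of 200 (4.5%) had a lower score and the SD was 0.424. For PHO2, 23 of 200 genes of like length (11.5%) were lower. PHO80 and PHO85, both short, ranked higher among their own length classes, with 19% and 20.5% of genes lower and SDs of 0.62 and 0.607. All 5 regulators lay below the first quartile of genes of like length, as do 25.1% of all genes when each is set against its own length class.

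**Figure D2:**
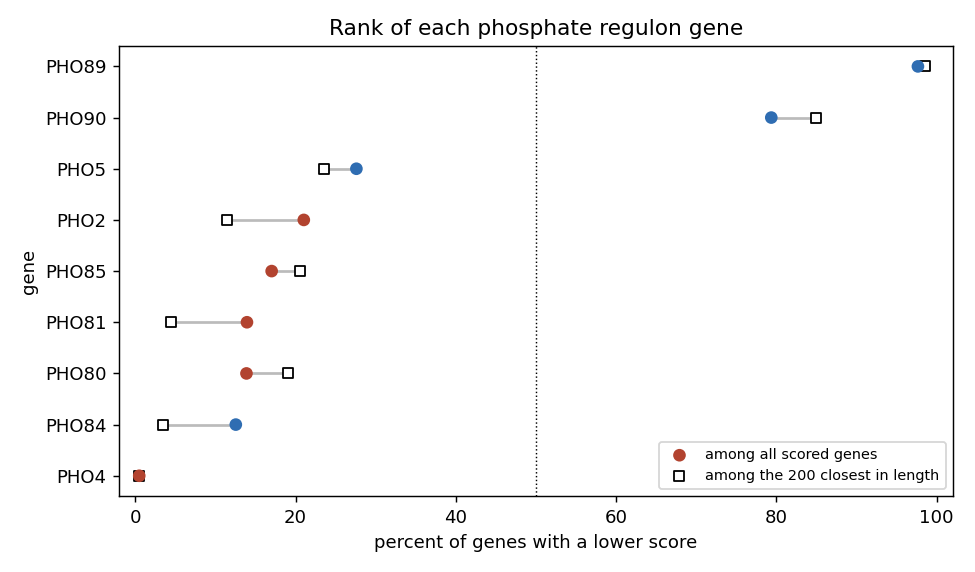
The percent of genes with a lower compaction score is plotted for each phosphate regulon gene, among all scored genes (filled points, regulators in red and the others in blue) and among the 200 scored genes closest in length (open squares). The 7 genes below 0 stay left of the dotted line at 50% on both scales, and PHO84, PHO81, PHO2 and PHO5 move further left when length is taken into account.

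Among the targets, PHO84 (YML123C; chromosome XIII, 24037 to 25800, minus strand), which encodes the high-affinity proton-coupled phosphate transporter, had the lowest score at -0.639. Of all scored genes 12.5% were lower, and of the 200 genes of like length 7 (3.5%). R64 annotates an antisense RNA, YNCM0001W, on the plus strand at 23564 to 26578, so that it spans all 1764 bp of PHO84. PHO84 is the only gene of the 10 that overlaps another annotated feature. The score does not separate strands, and whether the antisense RNA is made in swr1Δ was not measured. TUB3, an alpha-tubulin gene and the nearest scored gene downstream, had a score of 0.115, which is 0.754 above that of PHO84. GTR1, upstream, had -0.359. Over the genome, the absolute difference between adjacent scored genes had a median of 0.428.

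PHO5 (YBR093C; chromosome II, 429548 to 430951, minus strand) encodes the secreted repressible acid phosphatase. It had a score of -0.308, with 27.6% of all scored genes and 47 of 200 genes of like length (23.5%) lower. Of the 7 genes below 0 it was the closest to the median of all genes. The gene next to it is PHO3, its close paralog for a constitutive acid phosphatase, which lies downstream on the same strand with the same annotated length of 1404 bp. PHO3 had a score of 0.197, which is 0.506 above that of PHO5. Such a step was common, since 56.9% of adjacent scored genes differed by less. The paralogs are alike in sequence, and how reads that fit both were handled is not stated, so the scores of both are uncertain. On its promoter side PHO5 faces PBY1, at -0.0478, across an interval of 1084 bp, longer than that of 88.4% of scored coding genes.

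PHO89 and PHO90 stood on the other side of the distribution. PHO89 (YBR296C; chromosome II, 796798 to 798522, minus strand), which encodes a sodium-coupled phosphate transporter, had the highest score of the 9 at 0.957. Only 110 of the 4738 genes were higher, and of the 200 genes of like length 197 (98.5%) were lower. PHO90 (YJL198W; chromosome X, 60844 to 63489, plus strand), a low-affinity transporter, had a score of 0.309, with 79.4% of all genes and 85% of genes of like length lower. PHO84 and PHO89, both high-affinity transporter genes activated by Pho4, differed by 1.60, and their lengths are alike at 1764 and 1725 bp. PHO89 is also the only scored gene of the 10 among the 5 scored genes nearest a chromosome end. This rule counts scored genes and not distance, and PHO84, at 24037 to 25800, also lies toward an end of its chromosome. The nearest scored neighbors of PHO89 differed widely, with PCA1 at 0.269 on one side and TYC1 at -0.692 on the other. Beyond TYC1 lie 5 coding genes without a score before COS2, at 0.411. The part of the chromosome end in the scores of PHO89 and PHO84 was not tested.

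Each gene was next set against its surroundings. Of the 9 genes, 7 had a score below the median of the 2 nearest scored genes on each side, where 50.1% of all scored genes do, and they were the same 7 genes that lay below 0. That share is over genes of any score. A gene with a low score is more likely than others to lie below its neighbors, so this count is not independent of the count below 0. The distance below the neighbors was widest for PHO4 at -1.54, although 2 of its neighbors were themselves very low. It was -0.698 for PHO81 and -0.572 for PHO85. Of the neighbors of PHO81, NAS6 and MIC26 had scores of 0.494 and 0.692, and PHB2 and YHB1 had -0.2895 and -0.3369. For PHO84, PHO5, PHO80 and PHO2 the distance was between -0.457 and -0.226. These distances depend on how many neighbors are used: with 1 on each side PHO2 was at -0.0223 and PHO85 at -0.3115, with 5 on each side PHO5 was at -0.05295, and PHO4 was at -1.18 with 1 and -2.38 with 5. PHO80 lies beside RRP6, the nuclear exosome gene, which had a score of 0.135, and IZH2 on its other side, across an 884 bp promoter interval, had -0.753. PHO2 lies beside MSS2, at -0.851, and YBR090C near PHO5 had -1.27, so that PHO80, PHO2 and PHO5, like PHO4, each had a lower gene among these neighbors. PHO90 lay 0.57 and PHO89 0.804 above their neighbors.

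**Figure D3:**
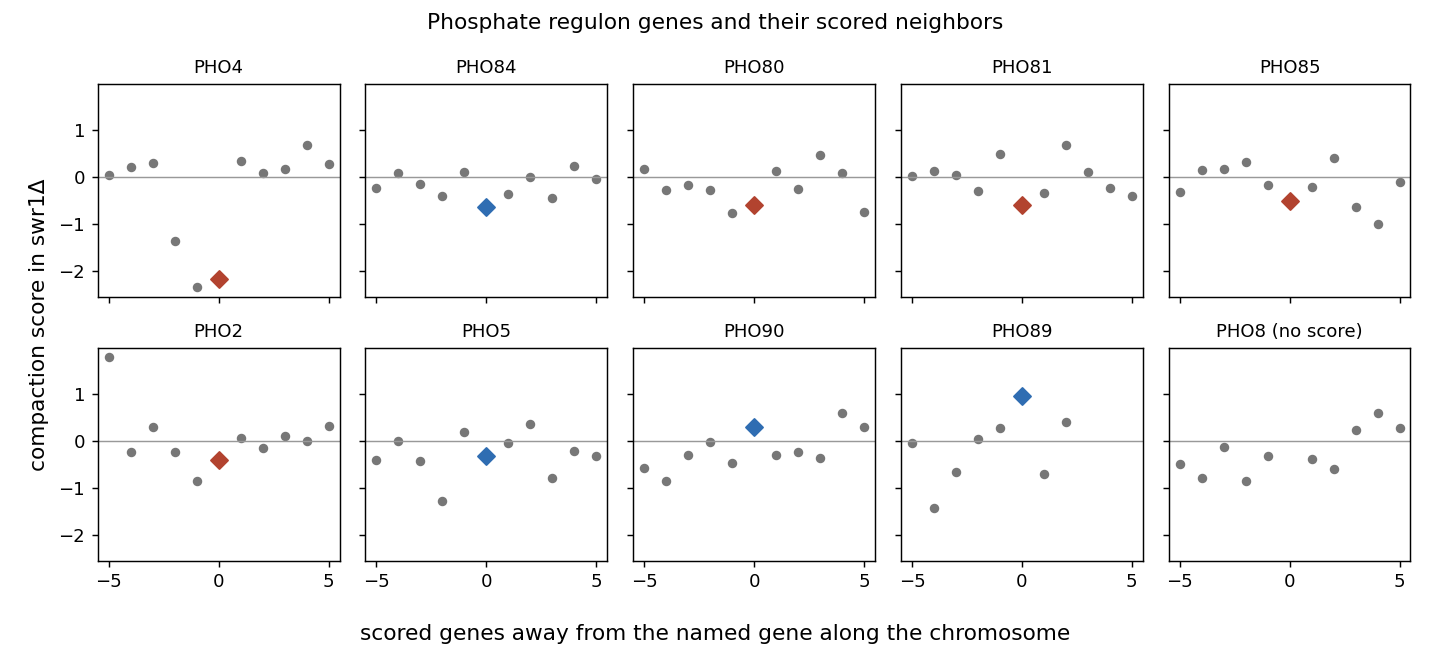
The compaction score in swr1Δ is plotted for each phosphate regulon gene (diamond, regulators in red and the others in blue) and for up to 5 scored genes on each side of it (grey points), with position counted in scored genes along the chromosome. PHO4 ends a run of 3 low genes, PHO84, PHO81, PHO85 and PHO5 lie below both adjacent genes, and PHO89 and PHO90 lie above theirs.

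PHO8 (YDR481C; chromosome IV, 1418550 to 1420250, minus strand), the vacuolar alkaline phosphatase gene, has no score. It is 1 of 1440 coding genes of R64 (23.9% of 6021) without one. Genes without a score were mostly short, with a median length of 522 bp against 1347 bp for scored genes. At 1701 bp PHO8 is not short, and 234 genes without a score were at least as long. The genes on either side, DIG2 and CWC21, have no score either. The nearest scored genes, PEX29 and KRE2, had -0.325 and -0.391, and the next, SNM1 and VPS52, -0.855 and -0.586. All 4 lay below 0, which says nothing of PHO8 itself. Why a gene has no score is not stated.

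Promoter intervals of the 10 genes ran from short to long. The median distance from the gene start to the next coding gene upstream was 583 bp, against 445 bp for scored coding genes, and 7 of 10 were above that value, among them PHO2 (487 bp) and PHO85 (505 bp), which were close to it. PHO81, at 1693 bp, and PHO89, at 1600 bp, had the longest, longer than 94.9% and 94.4% of scored coding genes. PHO4, at 162 bp, PHO8, at 180 bp, and PHO84, at 237 bp, had the shortest. The genes that bound the intervals of PHO4 and PHO84 are YFR035C and YML122C, which have only systematic names. These distances rest on the annotation and need not be the lengths of the promoters. Divergent neighbors, in which the upstream gene points away on the other strand, were found for 6 of 10, against 50.8% of scored coding genes. The genes with long intervals had scores on both sides of 0 (PHO81 at -0.596 and PHO89 at 0.957), whereas both scored genes with short ones, PHO4 and PHO84, had the lowest 2 scores. With 9 scored genes no relation between interval and score was computed.

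Other genes of phosphate metabolism did not lie to one side as a whole. Of 38 further genes listed by role, 32 had a score. Scores below 0 were found for 17 of the 32 (53.1%), close to the 53.8% of all scored genes, and the median was -0.0051. Below the first quartile lay 8, and above the third 11. The genes for polyphosphate, the chain in which yeast stores phosphate in its vacuole, came closest to the 9 genes above. Of 6 scored, 5 lay below 0, PPN1 only just at -0.0033, with a median of -0.374. Below the median of all scored genes lay 4 of the 6, and below the first quartile 3, as do 25% of all genes. This list is too short to be told from the shares of all genes. The polymerase subunit VTC4 was lowest at -0.633, VTC2 had -0.531 and VTC3 had -0.429, while the exopolyphosphatase PPX1 was highest at 0.193.

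Scores above 0 were found for 46.2% of all scored genes and scores below 0 for 53.8%, and the lists that follow are too short to be told from those shares. Of 5 scored phosphatase genes other than PHO5, 4 lay above 0, with DIA3 close to it at 0.0226 and a median of 0.197, from PHO13 at -0.0652 to PHO11 at 0.372. PHO11 and PHO12 (0.279) are near-identical acid phosphatase genes close to chromosome ends, so that their separate scores are uncertain. Of the 6 transport genes 3 lay below 0, with PHO88 lowest at -0.729 and GIT1, a glycerophosphoinositol permease gene, highest at 0.667. The transporter genes of the same family as PHO90 (0.309) are PHO91, at 0.336, and PHO87, at -0.348. Among 8 scored cyclins of Pho85 other than Pho80, 3 lay below 0 and the median was 0.184. PHO80 (-0.599) was lower than all of them but PCL2, at -0.721. PCL7, at -0.5665, was close to PHO80, and their order cannot be told from error. CLG1 was highest at 0.43. Of 7 further regulators and responsive genes, 5 lay below 0, DDP1 only just at -0.0069. Below the median of all scored genes lay 4 of the 7, and below the first quartile 1. The scores of the 7 ran from PHM6 at -1.44 to PHO92 at 1.08. That span was narrower than the span of all 9 genes, 3.13, and wider than their span without PHO4, 1.60.

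**Figure D4:**
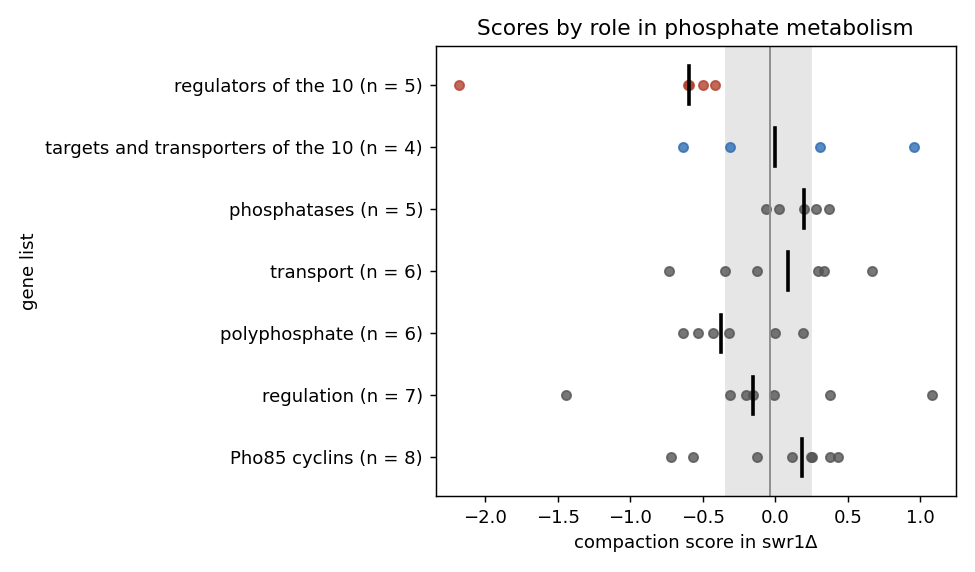
Compaction scores in swr1Δ are plotted for phosphate genes by role, 1 point per gene, with the median of each list as a black bar, the median of all scored genes as a grey line and their interquartile range as a grey band. The 5 regulators all lie left of the band, the polyphosphate genes have a median of -0.374, and the phosphatases and Pho85 cyclins have medians above 0.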

How the data were processed

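Micro-C was performed by the authors on swr1Δ, and 2 samples labelled as replicates were used, whereas the paper's methods name 3. The submitters' processing notes list sacCer3, CASAVA 1.8.2 and Bowtie2. The authors deposited 1 compaction score per gene for the strain, with replicates not separate. Its formula is not given in the sources used here. The authors also deposited raw counts of read pairs by distance (1 to 10000 bp) and by read orientation for 2 libraries not tied to a replicate number, of which in-in pairs were used. Filters and duplicate removal are not given. The 6 per-sample columns of the other orientations were left unused.

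Each score was ranked among all 4738 genes, among the 200 closest in length (100 and 400 as alternatives) and against 2 scored neighbors on each side. Gene names, lengths and positions were taken from the R64 gene table, the assembly of sacCer3, in which 4585 of the scored identifiers (96.8%) were found, and strand was read from the systematic name. Upstream distances use coding genes only. No test was run, because a score has no replicates. Genes named were the 10, their nearest scored neighbors, and the lowest and highest gene of each role list. The other genes named were chosen after their values were seen. The 10 genes and the lists were chosen with earlier results of these data known. A promoter motif search and a comparison of protein sequences were planned and not run. Ranking, neighbor and length functions were tested on simulated data. Python 3.11.15, numpy 2.4.6, pandas 2.3.3, scipy 1.17.1 and matplotlib 3.10.9 were used.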

Additional observations from a re-analysis of the deposited data

How the results depend on the processing

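The count of 7 genes with a score below 0 was 7 against the median of all genes, of genes of like length, of genes away from chromosome ends and of genes not named RPL, RPS or RPP, and 6 of 8 without PHO4. The medians of genes of like length lay between -0.107 and 0.05. None of the 9 scores lay between -0.308 and 0.309, so this count had little room to change. The median of -0.501 was -0.441 as a mean and -0.457 without PHO4. The count of 6 below the first quartile was 7 among genes of like length, 6 without genes named RPL, RPS or RPP, and 5 of 8 without PHO4. The alternatives without PHO4 and those of the quartile count were added with the scores known. The count of 7 below the neighbors was 7 with 1 and with 5 neighbors on each side, although the distance was then only -0.0223 for PHO2 with 1 and -0.05295 for PHO5 with 5. Against the median of all genes, the 17 lower genes among the other pathway genes became 15. Of 45 ranks recomputed for single genes, 31 moved beyond the counting interval of the rank among all genes and 14 did not, and 0 crossed 50%. That interval does not measure the error of a score, which has no replicates. Small steps count as moves, such as that of PHO4 from 0.485% of all genes to 1% of the 100 closest in length. The largest move was that of PHO81, by 10.9 percentage points to 3%, among the 100 and also the 400 genes closest in length. Each library on its own held from 6169934 to 7944948 in-in pairs, and the scores could not be split by library. The median without genes that have a close paralog was not run, since no protein sequences were used here. No paired analysis was possible because all samples are of 1 strain.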
